A study of Rattus norvegicus with 9 samples.

Results

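The genes described here take up and trap fluorodeoxyglucose (FDG), the glucose analogue of positron emission tomography; the labels write FDG without spelling it out. They were chosen by name: 5 facilitative glucose transporters (Slc2a1, Slc2a3, Slc2a4, Slc2a8 and Slc2a12), 3 hexokinases (Hk1, Hk2 and Hkdc1) and 2 genes of the glucose-6-phosphatase system (G6pc3 and Slc37a4). Of these 10 genes, 9 had a row among the 17120 genes kept in each of the deposited tables, and 8 passed a filter of a mean of at least 1 FPKM in each table. FPKM divides a gene's sequenced fragments by its transcript length and by the size of the library, so levels can be compared between genes. Hkdc1 was not analysed here, since no row carries that symbol. Slc2a3, the high-affinity transporter GLUT3, was listed at 0 in all 12 library columns. Several genes of the ribosome and of general metabolism, Rps6, Rpl8 and Hprt1 among them, were also listed at 0, so a listed 0 is not read here as absence of the transcript.

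The study measured RNA of rat ileum by sequencing of total RNA. All animals were Otsuka Long-Evans Tokushima fatty (OLETF) rats. Rats of this strain have no functional cholecystokinin A receptor, overeat and develop obesity and diabetes, and all groups, controls included, share this background. In Roux-en-Y gastric bypass (RYGB) most of the stomach and the duodenum are cut off from the food stream. The groups were RYGB ileum labelled FDG-decreased, RYGB ileum labelled FDG-increased, and the ileum of sham-operated rats, each with 3 samples taken 1 month after the operation. The uptake values behind the FDG labels were not analysed here. Nothing in the labels says whether replicates were separate animals, so each adjusted p here reflects the spread of these samples alone, and that spread may be technical.

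FDG enters cells through the facilitative transporters, which carry hexoses down their concentration gradient, and is phosphorylated by hexokinase. FDG-6-phosphate cannot go on through glycolysis and stays in the cell until a glucose-6-phosphatase removes the phosphate; that reaction takes place inside the endoplasmic reticulum and needs a carrier that brings the phosphate ester there. Transporter level, hexokinase level and phosphatase level therefore each bear on how much label a tissue holds. In bulk tissue, fewer cells of a type and less RNA per cell cannot be told apart.

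Promoter windows of 3 of these genes are shown because their products stand for the steps of entry, phosphorylation and dephosphorylation. The sequences are those of RefSeq for rat build GRCr8, from 250 bases before to 50 bases after the gene's start, written 5′ to 3′ on the gene's strand; 8 of the 10 genes had such a window. Capitals mark ACGTG, the core letters of the hypoxia response element, and GGGCGG, the GC box, on either strand. The windows lie at chr5:138002272-138002571 (plus strand, Slc2a1), chr4:116841226-116841525 (minus strand, Hk2) and chr10:87646899-87647198 (plus strand, G6pc3).
Slc2a1: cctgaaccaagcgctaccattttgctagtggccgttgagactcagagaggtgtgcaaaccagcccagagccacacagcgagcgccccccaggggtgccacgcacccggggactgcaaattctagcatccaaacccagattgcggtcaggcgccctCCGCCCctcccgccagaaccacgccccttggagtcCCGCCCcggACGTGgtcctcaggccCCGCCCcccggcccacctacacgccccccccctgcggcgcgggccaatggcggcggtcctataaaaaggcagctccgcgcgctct
Hk2: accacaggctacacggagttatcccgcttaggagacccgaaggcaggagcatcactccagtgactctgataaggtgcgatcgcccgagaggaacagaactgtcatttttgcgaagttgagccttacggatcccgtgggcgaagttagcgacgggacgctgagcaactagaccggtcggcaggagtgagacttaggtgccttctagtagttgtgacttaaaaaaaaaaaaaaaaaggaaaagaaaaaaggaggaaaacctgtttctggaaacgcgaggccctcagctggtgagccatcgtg
G6pc3: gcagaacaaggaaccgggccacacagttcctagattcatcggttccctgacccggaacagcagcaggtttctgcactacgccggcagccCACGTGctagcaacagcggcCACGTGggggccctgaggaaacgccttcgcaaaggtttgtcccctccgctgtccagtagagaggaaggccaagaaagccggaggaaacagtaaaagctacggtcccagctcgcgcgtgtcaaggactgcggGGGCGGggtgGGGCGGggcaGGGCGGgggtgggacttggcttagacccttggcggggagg
The Slc2a1 window held 1 ACGTG and 3 GGGCGG. It also held the letters of 1 CCAAT box and 1 TATA box, 8 and 24 bases after the start. The search covered 6 motifs on both strands. They were the E-box CACGTG, the hypoxia core ACGTG that it contains, the GC box GGGCGG, the CCAAT box, the TATA box written as TATAAA, and the AP-1 motif TGACTCA. The Hk2 window held none of them, which says only that these letters are not in this window. The G6pc3 window held 3 GGGCGG and 2 CACGTG; each CACGTG contains ACGTG on both strands and so accounts for all 4 ACGTG there. Over all 33469 windows of the same length, 19.3% held the hypoxia core, 6.42% the E-box, 33.1% the GC box, 37.5% the CCAAT box, 14.2% the TATA box and 4.63% the AP-1 motif. GC content was 68.3% in the Slc2a1 window, 51.0% in the Hk2 window and 64.0% in the G6pc3 window, against a median of 51.7% over all windows.

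The values come from 2 tables that the authors scaled separately. The RYGB table holds 3 FDG-decreased and 3 FDG-increased libraries, and the sham table holds 3 FDG-increased and 3 sham libraries. FDG-increased columns 2 and 3 of the sham table are columns 1 and 2 of the RYGB table on another scale, so only 10 of the 12 columns are different libraries. Both comparisons share these libraries. FDG-increased ileum has 4 different libraries in all, 1 more than the labels list, and which of them the extra one is was not settled. Summed FPKM ran between 465697 and 864511 per library, and between 10332 and 10892 genes reached 1 FPKM; read depth is unknown. Fabp6, the ileal bile acid binding protein that defines the segment, reached 5399 to 22498 FPKM in the libraries of the RYGB table, against 22.6, 8375 and 11347 FPKM in sham replicates 1, 2 and 3. Lct, the lactase of the upper small intestine, stood at 253, 8.60 and 0.317 FPKM in the same sham libraries. Sham replicate 1 thus stands apart from the ileal label, and the differences from sham are also given without it.

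The levels of these genes fell into 3 tiers that were alike in every group. Hk2, Slc37a4 and G6pc3 had the highest levels, with group means between 17.5 and 38.1 FPKM. Slc2a1, Hk1 and Slc2a4 had group means between 5.52 and 10.1 FPKM, and Slc2a8 and Slc2a12 lay between 1.12 and 3.03 FPKM. Across the borders between tiers the libraries of a group did not overlap, while most neighbours within a tier did. Within the top tier the order differed. In the RYGB table Hk2 ranked 3 in FDG-decreased ileum with 17.5 ± 5.61 FPKM (SD, n = 3), behind Slc37a4 and G6pc3, and ranked 1 in FDG-increased ileum with 38.1 ± 15.7 FPKM (SD, n = 3). In both groups its libraries overlapped those of Slc37a4 or G6pc3, so this order does not exceed the spread.

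**Figure D1:**
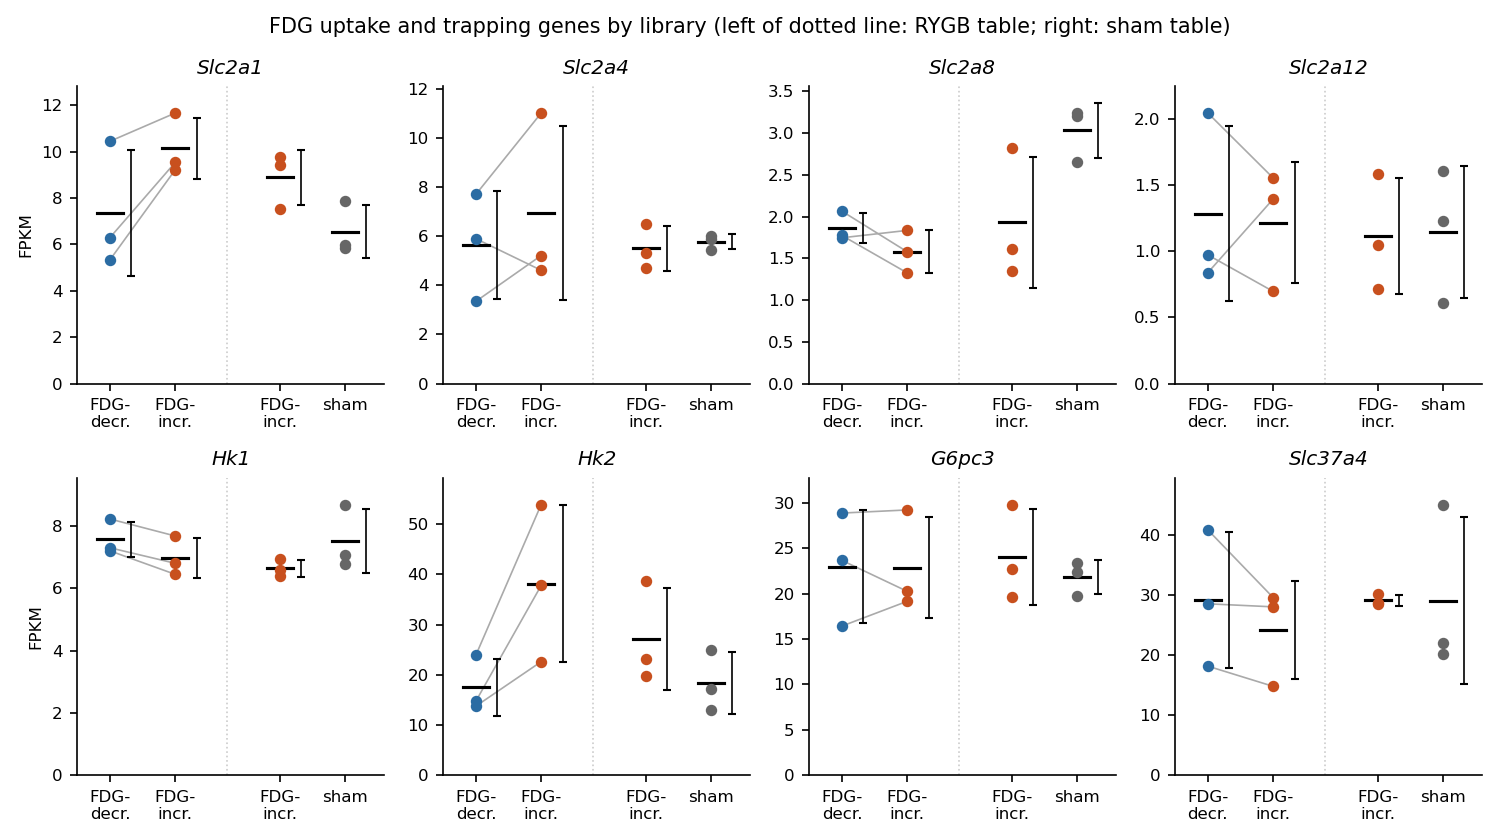
FPKM (linear axis starting at 0) of 8 genes in each library, with 1 panel a gene; points are libraries, short bars group means, whiskers 1 SD to either side, and grey lines join same-numbered libraries; left of the dotted line stands the RYGB table and right of it the sham table, scaled separately. In the Hk2 panel the FDG-increased points reach 53.9 FPKM and the FDG-decreased points stay at or below 23.9 FPKM; the other panels show groups that overlap more.

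FDG-decreased and FDG-increased RYGB ileum differed most, among these genes, in Hk2, the inducible hexokinase of muscle, fat and growing cells. Its level was lower in FDG-decreased ileum in each of the 3 pairs of libraries that share a replicate number. Slc2a1, the widespread transporter GLUT1, was also lower in all 3 pairs, while Hk1, the constitutive hexokinase, and Slc37a4, the carrier of glucose-6-phosphate into the endoplasmic reticulum, were slightly higher in all 3. Without use of the pairing, none of the 8 genes passed the threshold (limma, Benjamini-Hochberg adjusted p under 0.05), and 0% of all 10739 genes tested did. At an unadjusted p under 0.05 stood 110 genes, or 1.02%, and 1 of the 8, Hk2. With the replicate number as a block, Hk2 fell in FDG-decreased ileum, and it was 1 of 8 genes called against 1.14% of all genes tested, or 0.689% in its direction. That 4 of 8 genes differed one way in all 3 pairs stands against 29.8% of all genes, and none of the 8 had groups without overlap, against 3.20% of all genes. The median log2 difference of the 8 genes was 0.01, and that of all genes tested 0.02.

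Among the transporters, Slc2a1 had 6.29, 5.33 and 10.4 FPKM in FDG-decreased replicates 1, 2 and 3, against 9.53, 9.21 and 11.7 FPKM in FDG-increased replicates 1, 2 and 3. FDG-decreased replicate 3 lay above the lower FDG-increased libraries, so the groups overlap, although each FDG-decreased library was below its same-numbered partner. The log2 difference in level, FDG-decreased minus FDG-increased and on the log2(FPKM + 1) scale used throughout, was -0.46 with an SE of 0.30 and a 95% interval of -1.15 to 0.24 (limma, Benjamini-Hochberg adjusted p = 1). With the replicate block the SE was 0.16 and the adjusted p 0.346 (limma, Benjamini-Hochberg), so Slc2a1 did not pass either way. As a ratio of FPKM within a pair, the FDG-decreased library had 0.660, 0.579 and 0.896 of the Slc2a1 level of its partner.

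Slc2a4, the insulin-responsive transporter GLUT4 of muscle and fat, had 3.35, 5.91 and 7.72 FPKM in FDG-decreased replicates 1 to 3, against 5.22, 4.62 and 11.0 FPKM in FDG-increased replicates 1 to 3. The groups overlap widely and the pairs do not share a direction; the log2 difference was -0.23 with an SE of 0.40 (limma, Benjamini-Hochberg adjusted p = 1). Slc2a8, the intracellular transporter GLUT8, had 2.07, 1.77 and 1.75 FPKM in FDG-decreased libraries and 1.58, 1.33 and 1.83 FPKM in FDG-increased libraries. Its log2 difference was 0.15 with an SE of 0.22. Slc2a12, the transporter GLUT12, had 0.974, 2.05 and 0.839 FPKM in FDG-decreased libraries and 0.698, 1.56 and 1.40 FPKM in FDG-increased libraries. These were the lowest levels of the tested genes and lay near the 1 FPKM filter, and the log2 difference of 0.03 had an SE of 0.29. Slc2a1 made up 49.6%, 35.4% and 50.3% of the summed FPKM of the named transporters in FDG-decreased libraries and 56.0%, 55.1% and 45.0% in FDG-increased libraries, so this share overlaps between the groups.

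Of the named hexokinases with a row, Hk2 carried the difference between the groups. It had 14.7, 13.7 and 23.9 FPKM in FDG-decreased replicates 1 to 3, against 37.8, 22.6 and 53.9 FPKM in FDG-increased replicates 1 to 3. FDG-increased replicate 2 lay just under FDG-decreased replicate 3, which is the only overlap between the groups, and within every pair the FDG-decreased library was the lower one. The ratio of FPKM, FDG-decreased over FDG-increased, was 0.390, 0.608 and 0.443 in pairs 1, 2 and 3. Without the block the log2 difference in Hk2 level was -1.04 with an SE of 0.40 and a 95% interval of -1.96 to -0.12, which does not pass over all genes (limma, Benjamini-Hochberg adjusted p = 1). With the replicate block the same difference had an SE of 0.16, an interval of -1.39 to -0.69 and an adjusted p of 0.0111 (limma, Benjamini-Hochberg). Without pair 1 the blocked difference was -0.91 and no longer passed (limma, Benjamini-Hochberg adjusted p = 0.175). The libraries of pair 1 share a lane code in the labels, as do those of pair 2, while those of pair 3 carry different codes; the flow cell is not given. Without pair 3 the blocked difference was -0.99 (limma, Benjamini-Hochberg adjusted p = 4.03e-05). Over the blocked fits that leave out a pair, the adjusted p ran from 1.53e-08 to 0.175 (limma, Benjamini-Hochberg). So few libraries are left in such a fit that its adjusted p is unstable, and a smaller value than with all pairs is not stronger evidence.

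Hk1, which sits on the outer mitochondrial membrane in most tissues, had 7.20, 7.30 and 8.23 FPKM in FDG-decreased replicates 1 to 3, against 6.45, 6.80 and 7.68 FPKM in FDG-increased replicates 1 to 3. The FDG-decreased library was higher in each pair, by ratios of 1.12, 1.07 and 1.07. The log2 difference of 0.11 had an SE of 0.23, and it did not pass with the block (limma, Benjamini-Hochberg adjusted p = 0.946).

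Summed hexokinase FPKM here means Hk1 plus Hk2. Hkdc1 has no row, so the Hk2 share is not its share of all hexokinase RNA. The share of Hk2 in the summed hexokinase FPKM, a ratio within a library that no table scaling can move, was 67.2%, 65.3% and 74.4% in FDG-decreased replicates 1 to 3, against 85.4%, 76.9% and 87.5% in FDG-increased replicates 1 to 3. All FDG-decreased libraries lay below all FDG-increased libraries in this share, while Hk2 itself overlaps between the groups. How often such a share separates the groups for other genes was not computed. The means were 69.0% ± 4.81 in FDG-decreased ileum and 83.3% ± 5.65 in FDG-increased ileum (SD, n = 3 each), a difference of -14.3 percentage points that exceeds either SD. No p is given for a score over chosen genes.

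**Figure D2:**
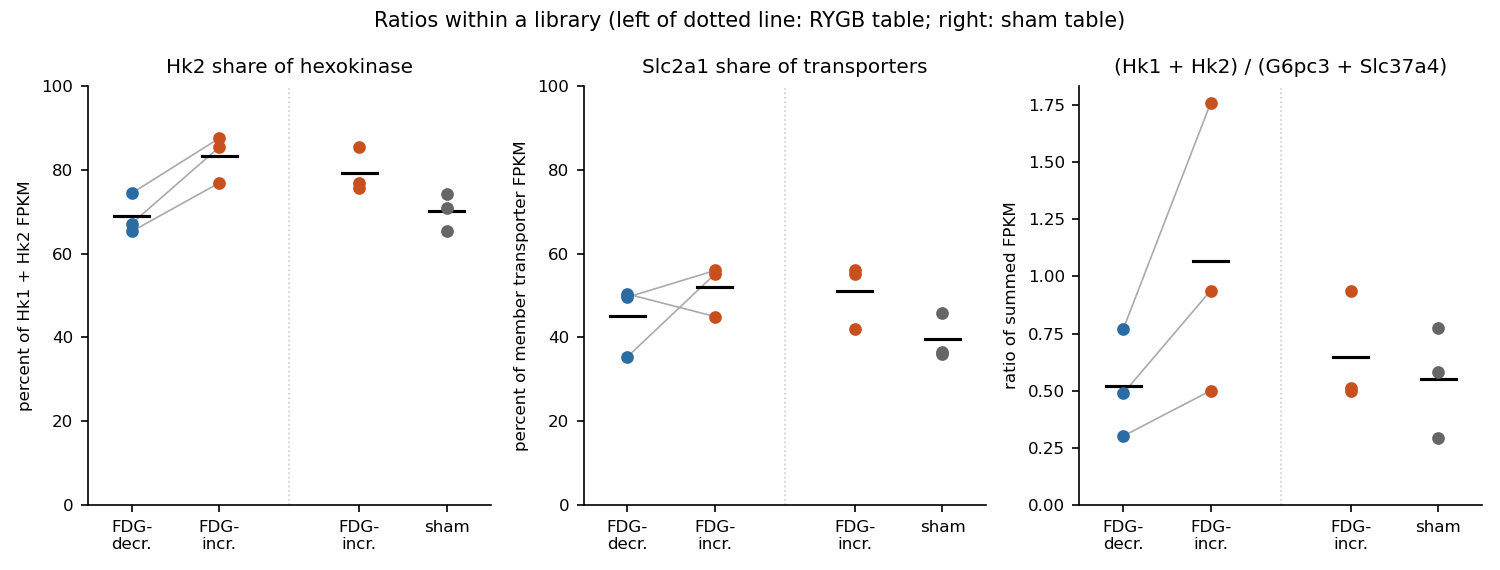
Ratios of FPKM within each library (Hk2 as a percentage of summed Hk1 and Hk2 FPKM, Slc2a1 as a percentage of summed member transporter FPKM, and summed Hk1 and Hk2 FPKM over summed G6pc3 and Slc37a4 FPKM), with points as libraries, bars as group means and grey lines between same-numbered libraries. The dotted line parts the RYGB table on the left from the sham table on the right. The Hk2 share is the panel in which the FDG-increased libraries, at 75.6% to 87.5%, lie above the FDG-decreased and sham libraries.

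In the phosphatase system, G6pc3, the ubiquitous catalytic subunit, had 16.4, 28.9 and 23.7 FPKM in FDG-decreased replicates 1 to 3, against 19.1, 29.2 and 20.2 FPKM in FDG-increased replicates 1 to 3. The groups cover the same range, and the log2 difference of -0.0040 had a 95% interval of -0.75 to 0.74, so a change of that size in either direction lies within the error. Slc37a4 had 28.5, 40.8 and 18.1 FPKM in FDG-decreased replicates 1 to 3, against 28.0, 29.6 and 14.8 FPKM in FDG-increased replicates 1 to 3. The spread between pairs was wider than the difference within them; the log2 difference was 0.25 with an SE of 0.41, and with the block it did not pass (limma, Benjamini-Hochberg adjusted p = 0.693). Summed hexokinase FPKM over summed G6pc3 and Slc37a4 FPKM was 0.488, 0.302 and 0.769 in FDG-decreased libraries, against 0.938, 0.500 and 1.76 in FDG-increased libraries. This ratio was lower in the FDG-decreased library of each pair, though the groups overlap.

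The other glucose-handling genes were read from lists. Of 6 further facilitative transporters tested, none was called with or without the block; Slc2a2, the low-affinity transporter GLUT2 of the basolateral enterocyte membrane, had a log2 difference of 2.38 (limma with block, Benjamini-Hochberg adjusted p = 0.437), and Slc2a5, the fructose transporter, one of 0.70. Of 4 sodium-coupled transporters tested, Slc5a4, known in human as the glucose sensor SGLT3, was the only one called, and only with the block: it rose in FDG-decreased ileum by a log2 difference of 1.85 (limma with block, Benjamini-Hochberg adjusted p = 0.0206). Slc5a1, the sodium-glucose cotransporter SGLT1 of the brush border, had a log2 difference of 0.43 and did not pass.

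G6pc, the glucose-6-phosphatase catalytic subunit of liver, kidney and gut, was listed outside the named set and opposed Hk2 in direction. It had 5.98, 19.5 and 1.26 FPKM in FDG-decreased replicates 1 to 3, against 0.819, 3.32 and 0.0686 FPKM in FDG-increased replicates 1 to 3. Each FDG-decreased library was above its partner, by ratios of 7.31, 5.87 and 18.4, while the groups overlap and the pairs differ widely in level. The FDG-increased levels of pairs 1 and 3 lay under 1 FPKM, so the ratios of these pairs are uncertain. G6pc rose in FDG-decreased ileum with the block, by a log2 difference of 1.76 with an SE of 0.23 (limma, Benjamini-Hochberg adjusted p = 0.00555). Without the block it did not pass (limma, Benjamini-Hochberg adjusted p = 1). Adpgk, the ADP-dependent glucokinase and the other tested gene of that list, had a log2 difference of -0.08.

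None of 22 regulators of transporter level and traffic passed, with or without the block; the largest differences were those of Txnip, the arrestin that drives transporters off the membrane, at a log2 difference of 0.63, and Mlxipl, the glucose-sensing factor ChREBP, at 0.47. None of 24 genes of glycolysis after hexokinase and of lactate export passed either. Eno1, an enolase of that list, had a log2 difference of 0.44. Among 15 genes of other routes from glucose-6-phosphate none passed, and Gfpt2, an entry enzyme of the hexosamine pathway, at -0.70, and Pgm2, of the phosphoglucomutase family, at 0.26, differed most. The median log2 differences of these 3 lists were -0.0024, 0.07 and -0.03, beside 0.02 for all genes.

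**Figure D3:**
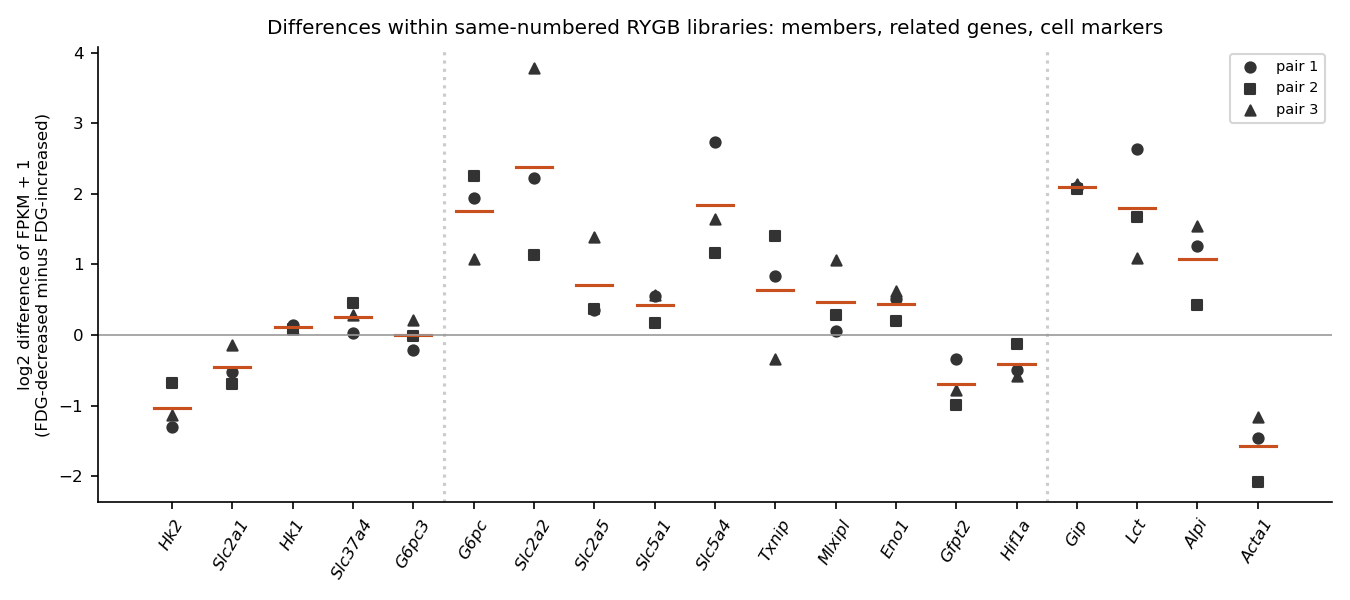
Log2 differences in level, FDG-decreased minus FDG-increased, on the log2(FPKM + 1) scale in each same-numbered pair of libraries; the 3 symbols are the pairs, bars are their means, the line at 0 marks no difference, and dotted lines part the named genes, other glucose-handling genes and cell markers. Hk2 lies below 0 in all 3 pairs, and G6pc above 0 in all 3.

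A few markers of gut segment, enterocytes and muscle were called beside Hk2 and G6pc in this comparison, all of them only with the block, under which 1.14% of all genes were called. With the block, Gip, the incretin of the upper intestine, rose in FDG-decreased ileum (limma, Benjamini-Hochberg adjusted p = 0.000318), as did Lct (adjusted p = 0.0190); these were 2 of the 8 segment markers tested. The summed FPKM of the 10 segment markers with a row was 9107 to 25274 in FDG-decreased libraries and 8977 to 29261 in FDG-increased libraries, with Fabp6 and Fabp1 highest and Pdx1 and Cbr1 under 0.1 FPKM throughout. That sum mixes markers of opposite segments: Fabp6, Slc51a and Osr2, of the ileum, were lower in FDG-decreased ileum in all 3 pairs, while Gata4, Lct, Gip and Fabp1, of the upper intestine, were higher in all 3. The 4 ileal markers summed to 16133, 19178 and 5609 FPKM in FDG-decreased replicates 1 to 3, against 19388, 24011 and 7630 FPKM in FDG-increased replicates 1 to 3. The 6 proximal markers, Fabp1 foremost, summed to 7784, 6096 and 3498 FPKM in FDG-decreased replicates 1 to 3, against 4745, 5251 and 1347 FPKM in FDG-increased replicates 1 to 3. Of the 8 segment markers tested, 7 differed one way in all 3 pairs, against 29.8% of all genes. Among 12 enterocyte markers, Alpi, the intestinal alkaline phosphatase, and Apob, the apolipoprotein of chylomicrons, rose with the block (limma, Benjamini-Hochberg adjusted p = 0.0471 and 0.0454). Of the 12, 7 were higher in FDG-decreased ileum in all 3 pairs, and 2, Epcam and Krt20, were lower in all 3. The sum of the 12, with Fabp2 and Krt8 highest, was 7439 to 17558 FPKM in FDG-decreased libraries and 5206 to 14266 FPKM in FDG-increased libraries. Among 9 muscle markers, Acta1, the skeletal muscle actin, fell with the block (limma, Benjamini-Hochberg adjusted p = 0.00422). Acta1, Tagln, Cnn1, Actg2 and Ckm, 5 of the 9, were lower in FDG-decreased ileum in all 3 pairs. Acta2, Myh11, Des and Myl1 went both ways, and over all genes 29.8% differed one way in all 3 pairs. The sum of the 9 was 753 to 1444 FPKM in FDG-decreased libraries and 996 to 1887 FPKM in FDG-increased libraries. Without the block none of these markers passed. The part of these markers in the Hk2 and G6pc differences was not tested.

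FDG-increased RYGB ileum was next set against sham ileum, in the sham table. Slc2a1 and Hk2 had higher means in FDG-increased ileum and Slc2a8 a lower one, and none of the 8 genes passed the threshold, against 0.0370% of the 10801 genes tested; 847 genes, or 7.84%, had an unadjusted p under 0.05, and none of these was among the 8. With the replicate block, where the numbers do not pair the libraries, none of the 8 was called either, against 0.361% of all genes. None of the 8 had groups without overlap, against 15.1% of all genes. The median log2 difference of all genes here was 0.13, against 0.04 for the 8 genes, so a small positive difference in this table is at the level of the whole table.

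Slc2a1 had 7.53, 9.75 and 9.40 FPKM in FDG-increased columns 1 to 3, against 7.87, 5.83 and 5.95 FPKM in sham replicates 1 to 3. Sham replicate 1 lay above the lowest FDG-increased library, and the other sham libraries lay below all of them. The log2 difference, FDG-increased minus sham, was 0.39 with an SE of 0.24 and a 95% interval of -0.15 to 0.93 (limma, Benjamini-Hochberg adjusted p = 0.739); without sham replicate 1 it was 0.51. Slc2a8 had 2.82, 1.62 and 1.35 FPKM in FDG-increased columns 1 to 3, against 3.24, 2.65 and 3.21 FPKM in sham replicates 1 to 3. Only FDG-increased column 1 reached the sham range. The log2 difference was -0.49 with a 95% interval of -1.06 to 0.08 (limma, Benjamini-Hochberg adjusted p = 0.686); without sham replicate 1 it was -0.45.

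Hk2 had 19.7, 38.7 and 23.1 FPKM in FDG-increased columns 1 to 3, against 12.9, 17.2 and 25.0 FPKM in sham replicates 1 to 3. Sham replicate 3 lay above all but the highest FDG-increased library, so the groups overlap. The log2 difference was 0.53 with an SE of 0.35 and a 95% interval of -0.26 to 1.32 (limma, Benjamini-Hochberg adjusted p = 0.758); it was 0.32 without sham replicate 1, the library that stands apart. Among the libraries of lane 7, that of all sham libraries, FDG-increased had 1 library, and the Hk2 difference was 1.08 and that of Slc2a1 0.52, values that assume that this lone library varies like the others. With FDG-increased column 1, whose lane is not known, in its place they were 0.15 and 0.19. Hk1 averaged 6.64 ± 0.283 FPKM in FDG-increased ileum and 7.52 ± 1.03 FPKM in sham ileum (SD, n = 3 each), a log2 difference of -0.15 with an SE of 0.22, and of -0.21 without sham replicate 1. The Hk2 share of summed hexokinase FPKM was 75.6%, 85.4% and 76.9% in FDG-increased columns 1 to 3, against 65.5%, 70.8% and 74.2% in sham replicates 1 to 3. No sham library reached the lowest FDG-increased one in this share, and how often other such shares separate these groups was not computed. The means were 79.3% ± 5.35 in FDG-increased ileum and 70.2% ± 4.40 in sham ileum (SD, n = 3 each), a difference of 9.11 percentage points, and of 6.77 points without sham replicate 1.

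**Figure D4:**
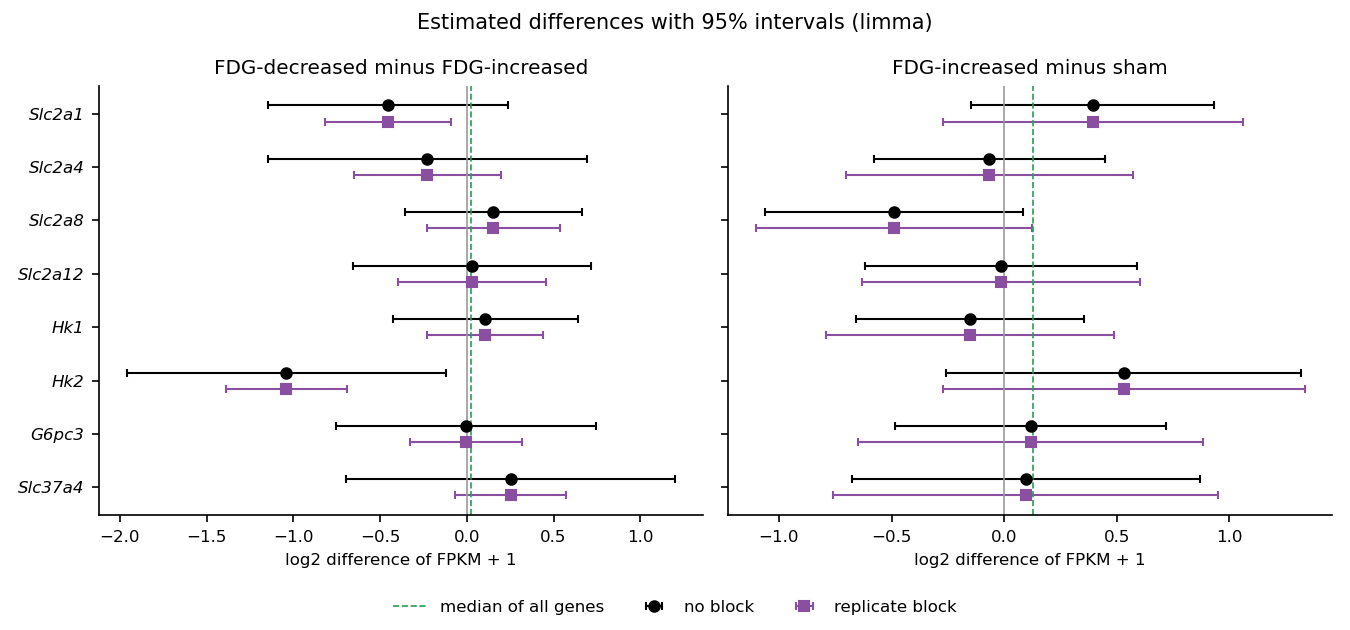
Estimated log2 differences in level (log2(FPKM + 1) scale, limma) of 8 genes with 95% intervals, for FDG-decreased minus FDG-increased ileum on the left and FDG-increased minus sham ileum on the right, without the replicate block as circles and with it as squares; the dashed line is the median of all genes. On the left Hk2 lies at -1.04 and its blocked interval runs from -1.39 to -0.69; on the right every interval includes 0.

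The remaining genes showed small differences against sham. Slc2a4 averaged 5.52 ± 0.910 FPKM in FDG-increased ileum and 5.78 ± 0.314 FPKM in sham ileum (SD, n = 3 each), a log2 difference of -0.07 with an SE of 0.23. Slc2a4 had 5.43, 6.03 and 5.89 FPKM in sham replicates 1 to 3. Adipoq, the fat cell hormone adiponectin, stood at 0.136, 71.3 and 15.7 FPKM in the same libraries. The summed FPKM of the 8 adipocyte markers with a row was 75.4 to 116 in FDG-increased libraries and 75.3 to 583 in sham libraries. The part of fat cells in the Slc2a4 values was not tested. Slc2a12 differed by -0.015, G6pc3 by 0.12 and Slc37a4 by 0.10 on the log2 scale, with SEs of 0.27, 0.27 and 0.34. Without sham replicate 1 these differences were -0.21, 0.14 and 0.45, and that of Slc2a4 was -0.10. Slc37a4 reached 45.1 FPKM in sham replicate 1, against 22.0 and 20.1 FPKM in sham replicates 2 and 3, while FDG-increased libraries held between 28.6 and 30.2 FPKM. The 4 ileal segment markers summed to 17131 to 24499 FPKM in FDG-increased libraries, against 197, 8691 and 11858 FPKM in sham replicates 1, 2 and 3. The 6 proximal ones summed to 3849 to 5358 FPKM in FDG-increased libraries, against 10703, 2250 and 2312 FPKM in sham replicates 1, 2 and 3, nearly all of it Fabp1. Acta1 had 15.6, 22.1 and 16.9 FPKM in FDG-increased columns 1 to 3, against 6.45, 2.40 and 5.30 FPKM in sham replicates 1 to 3, without overlap (limma, Benjamini-Hochberg adjusted p = 0.173). Over all genes, 15.1% had groups without overlap. Acta2 separated the other way, at 88.5 to 100 FPKM in FDG-increased libraries and 118 to 160 FPKM in sham libraries. Of the 9 muscle markers, 6 had positive log2 differences and 3 negative ones. Their sum overlapped, at 1016 to 1172 FPKM in FDG-increased libraries and 781 to 1222 FPKM in sham libraries. Macrophage, dendritic and granulocyte markers summed to 3052 to 7653 FPKM in FDG-increased libraries and to 1720 to 3653 FPKM in sham libraries. Nearly all of that sum was Lyz2, at 2992 to 7562 FPKM in FDG-increased libraries and 1690 to 3619 FPKM in sham libraries. All 7 tested markers of the list had positive log2 differences, against 64.7% of all genes, and none was called. Markers of T, NK and B cells summed to 118 to 185 FPKM in FDG-increased libraries and to 46.1 to 86.0 FPKM in sham libraries; the part of these markers in the values against sham, those of Hk2 included, was not tested.

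No gene of the other glucose lists passed against sham. The largest log2 differences, FDG-increased minus sham, were 1.24 for Slc2a5 and -0.74 for Slc2a2 among transporters, -0.94 for Slc5a4 and 0.61 for Slc5a11 among sodium-coupled transporters, and -0.56 for G6pc. Hif1a, the hypoxia-inducible factor, differed by 0.65 and Txnip by -0.62 among regulators. Pfkfb3, which makes an activator of phosphofructokinase, differed by -0.91, and Bsg, the chaperone of lactate carriers, by 0.68. Ugp2 and Gbe1, enzymes of glycogen synthesis, differed by 0.79 and 0.52. Without sham replicate 1, which had 261 FPKM of Slc2a2 and 103 FPKM of Slc5a4, against at most 22.5 and 2.98 FPKM in the other sham libraries, 3 of these differences changed sign: Slc2a2 was 0.68, Slc5a4 0.91 and G6pc 0.094. Slc2a5 was then 2.04, Slc5a11 0.94, Hif1a 0.44, Txnip -0.79, Pfkfb3 -0.30, Bsg 1.07, Ugp2 0.59 and Gbe1 0.48. None of the 73 list genes tested passed without that library (limma).

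FDG-decreased ileum and sham ileum were not tested against each other, since they stand in separately scaled tables; with the factor of 1.02 taken from the shared libraries, their values can be set side by side. On the sham scale Slc2a8 lay at 1.78 to 2.11 FPKM in the 3 FDG-decreased libraries and below the lowest sham library, at 2.65 FPKM, in 6 of the 7 distinct RYGB libraries. Of all genes, 5.24% had FDG-decreased and sham libraries without overlap. Hk2 lay at 14.0 to 24.4 FPKM in FDG-decreased libraries, at 19.7 to 55.1 FPKM in the 4 distinct FDG-increased libraries, and at 12.9 to 25.0 FPKM in sham libraries. With sham replicate 1 included, FDG-decreased ileum lay within the sham range, and 2 of 4 FDG-increased libraries lay above it. For Slc2a1, 3 of 4 FDG-increased libraries lay above the highest sham library, which was sham replicate 1. Without that replicate all 4 FDG-increased libraries lay above sham in Slc2a1. The share of all genes separated in that way was not computed. With all 3 sham libraries, 15.1% of all genes had FDG-increased and sham groups without overlap. The sham range of Hk2 without sham replicate 1 was 17.2 to 25.0 FPKM. FDG-decreased replicates 1 and 2, at 15.1 and 14.0 FPKM, lay below that range, and replicate 3, at 24.4 FPKM, within it. The Hk2 share of summed hexokinase FPKM, which needs no factor, was 65.3% to 74.4% in FDG-decreased libraries, 75.6% to 87.5% in FDG-increased libraries and 65.5% to 74.2% in sham libraries, or 70.8% to 74.2% without sham replicate 1. FDG-decreased replicates 1 and 2, at 67.2% and 65.3%, lay below that narrower range, and replicate 3, at 74.4%, just above it.

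The genes whose levels ran most like Hk2 were looked for over the 6 libraries of each table, by the lower of the 2 Pearson correlations of log2(FPKM + 1), among 10644 genes. Zc3h12a, an RNase that limits inflammation, had correlations of 0.95 in the RYGB table and 0.93 in the sham table. Phf13, a chromatin reader, had 0.95 and 0.89, and Fut2, a fucosyltransferase of mucosal glycans, 0.98 and 0.88. For Slc2a1 they were Mylk, the myosin light chain kinase, with 0.92 and 0.88, Stk40, a kinase-like protein, with 0.88 and 0.87, and Arhgap24, a GTPase-activating protein, with 0.82 and 0.81. Slc2a1 and Hk2 correlated at 0.87 in the RYGB table and 0.42 in the sham table. These are descriptions over 6 libraries, part of which the tables share.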

How the data were processed

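Total RNA of OLETF rat ileum was sequenced, and titles and treatment labels gave each sample its group. Both tables, as the authors deposited them, give an FPKM value for each gene in each library. STAR 2.6.0a, Cufflinks 2.2.1, bcl2fastq 1.8.4, DESeq2 1.24.0 and Cuffdiff (its version is not given in the sources used here) are named per the submitters' processing notes, without roles or order. The notes name the build hg19, which is human, though the symbols are those of rat. Depth is unknown: steps in the low values of 460 genes gave no whole reads. FPKM are not counts, so precision rests on the 3 libraries per group. Repeat runs, strand and multi-mapping settings are not given in the sources used here.

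Each comparison was fitted within its table with limma 3.58.1 (R 4.3.3; trended, robust variances) on log2(FPKM + 1) over the genes averaging 1 FPKM or more, with Benjamini-Hochberg adjustment and a threshold of 0.05. Fold changes of low genes are understated on this scale. The fit without the block was tested on simulated data with 200 changed genes. Its libraries were simulated as independent, so that test does not bear on the blocked fits. In the RYGB table, deviations from the group means correlated at 0.85, 0.76 and 0.77 between same-numbered libraries and at -0.59 to -0.13 between others; the labels do not say what the number marks, and the correlations are the ground for treating the numbers as pairs. The blocked value therefore stands beside the result it changes.

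The genes, the lists and the tests were chosen with earlier results of these data known. From each other list, genes past the threshold and those with the largest differences in each comparison, 2 a list, are named, except 1 that is not reported here; marker lists are given by their summed level and highest genes, and G6pc, Lct, Gip, Fabp6, Alpi, Apob, Acta1 and Adipoq by value where they stand beside a result. The split of segment markers into ileal and proximal sums, and the markers named beside it or by their pairs, were chosen after their values were seen. For likeness, the 3 genes with the highest lower correlation are named. Alternatives were other pseudocounts, filters and scalings, array weights, the block, lanes and leaving out libraries. Left out were 25 symbols turned into dates; 0 columns of samples were unused. Pandas 2.3.3 and matplotlib 3.10.9 were used for tables and plots.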

Additional observations from a re-analysis of the deposited data

How the results depend on the processing

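Among the 8 genes, the directions of Hk2, Slc2a1, Slc2a8 and Hk1 held in both comparisons under the alternatives run; those of Slc2a4, Slc2a12, G6pc3 and Slc37a4 did not. Without the block no gene was called between FDG-decreased and FDG-increased ileum (limma), and leaving out a library gave 0 to 1. The replicate block called 122 genes and 1 of the 8, Hk2; the block with a median shift, added after seeing the data, called 101 genes and 1 of the 8 (Hk2 at -1.05, limma, Benjamini-Hochberg adjusted p = 0.0231). Leaving out a pair under the block, also added, called 35, 415 and 346 genes without pair 1, 2 and 3, and 0 (without pair 1) or 1 of the 8. Hk2 ran from -1.36 to -0.75 and Slc2a1 from -0.71 to -0.28 when 1 library was left out.

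Against sham, 4 genes were called. Pseudocounts of 0.1 and 0.01 and a median shift each called 1, no filter, quantile normalization and lane 7 with FDG-increased column 1 called 0, array weights 1068, the block 39, and leaving out a library 0 to 13. The sham table's numbers do not pair its libraries: same-numbered correlations were 0.35, -0.50 and -0.25. With the whole Slc2a family, the Slc2a1 share differed by -0.44 percentage points, where the member transporters alone gave 11.5.

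Reversed log2 differences, FDG-decreased minus FDG-increased, were G6pc3 0.0043 under quantile normalization, 0.040 under array weights and 0.046 with lane as a covariate, and Slc2a12 -0.047 and Slc37a4 -0.038 under array weights. Under the block without a pair, Slc2a12 reached -0.064, and G6pc3 0.099 and 0.0022. Leaving out a library gave -0.45 to 0.11 for Slc2a4, -0.18 to 0.21 for G6pc3, -0.20 to 0.17 for Slc2a12 and -0.053 to 0.54 for Slc37a4. Against sham, G6pc3 was -0.011 and Slc37a4 -0.032 after a median shift, -0.086 and -0.10 after quantile normalization, G6pc3 -0.15 under array weights and -0.14 in lane 7, and Slc2a4 0.15 in lane 7 with column 1. Leaving out a library there gave -0.21 to 0.14 for Slc2a12, -0.17 to 0.026 for Slc2a4, -0.043 to 0.25 for G6pc3 and -0.11 to 0.45 for Slc37a4, and -0.044 to 0.21 for the hexokinase ratio. Without sham replicate 1, an alternative added after seeing the data for the other glucose genes, Slc2a2 was 0.68, Slc5a4 0.91 and G6pc 0.094, each with its sign turned. The cause was not tested. Depth is unknown, and 3 libraries a group limit what can be called.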
